A study of Homo sapiens with 32 samples.

Results

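This report describes 9 genes that the transcription factor NRF2 is known to switch on, in PC-3 cells given cyclophosphamide or its activated form. They were chosen by symbol, with earlier results of these data known. The genes are GCLM and GCLC of glutathione synthesis, TXNRD1, TXN and SRXN1 of the thioredoxin system, NQO1, and PGD, ME1 and UGDH, which make or need the cofactors NADPH and NADH. All 9 were on the array with 1 probe each, and all 9 were among the 10598 genes kept for testing out of 20589 probes. PC-3 is an established human prostate adenocarcinoma cell line, studied here on 32 single-colour Illumina bead arrays.

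Each compound formed an experiment of 16 arrays with vehicle arrays of its own. In the first, flasks received vehicle or the compound labelled inactive, cyclophosphamide, for 10 h (3 and 3 arrays), 24 h (3 and 3) or 48 h (2 and 2). In the second, they received vehicle (3 arrays at each time) or the compound labelled active, 4-hydroperoxycyclophosphamide, for 10 h (2 arrays), 24 h (2) or 48 h (3). Cyclophosphamide is a prodrug that liver enzymes oxidise; the active compound carries a hydroperoxy group and gives the oxidised metabolite in medium without that step. A concentration of 5.5 µM is stated for both in the treatment protocol but for the active compound alone in the design text, which leaves the dose of cyclophosphamide less sure. All groups are the same cell line in monolayer, with no genetic change given. Nothing in the labels says whether replicate arrays stand for separate cultures, and p-values therefore rest on a spread between arrays that may be technical.

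As background, NRF2 is a transcription factor that the adaptor KEAP1 holds at a low level by marking it for destruction. Electrophiles that react with KEAP1's cysteines release it, and with a small MAF partner it binds a short DNA motif, the antioxidant response element, near its target genes. Its targets make glutathione, keep thioredoxin reduced and supply NADPH for both, and glutathione is also what cells attach to reactive alkylating agents.

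Motif letters near the members' gene starts are shown first, because the members are grouped by a factor that binds such letters. The windows are RefSeq's on GRCh38.p14, from 250 bases before an annotated start to 30 bases after it, printed 5′ to 3′ on the gene's own strand. Capitals mark the core of the response element, searched as TGACNNNGC on both strands. GCLM and TXNRD1 are shown as 2 members with a match, ME1 as a member with 2 matches, and UGDH as one without.
GCLM, chr1:93909401-93909680, minus strand: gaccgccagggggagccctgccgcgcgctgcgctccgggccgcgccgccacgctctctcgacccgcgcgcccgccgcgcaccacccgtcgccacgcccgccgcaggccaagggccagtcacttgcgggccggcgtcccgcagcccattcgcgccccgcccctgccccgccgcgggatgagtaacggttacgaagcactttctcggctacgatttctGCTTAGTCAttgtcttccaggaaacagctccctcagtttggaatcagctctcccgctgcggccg
TXNRD1, chr12:104215529-104215808, plus strand, first start: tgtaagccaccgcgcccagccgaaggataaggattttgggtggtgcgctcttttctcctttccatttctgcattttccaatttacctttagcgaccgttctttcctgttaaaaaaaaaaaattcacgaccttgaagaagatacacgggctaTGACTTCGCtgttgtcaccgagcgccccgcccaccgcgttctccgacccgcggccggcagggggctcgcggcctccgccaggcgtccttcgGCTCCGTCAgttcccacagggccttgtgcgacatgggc
TXNRD1, chr12:104286782-104287061, plus strand, second start: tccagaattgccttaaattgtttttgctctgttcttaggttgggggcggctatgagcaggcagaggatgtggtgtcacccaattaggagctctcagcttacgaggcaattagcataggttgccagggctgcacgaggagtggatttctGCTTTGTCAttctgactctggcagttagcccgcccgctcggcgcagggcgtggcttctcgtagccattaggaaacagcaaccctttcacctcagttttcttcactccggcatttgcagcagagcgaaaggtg
ME1, chr6:83431022-83431301, minus strand: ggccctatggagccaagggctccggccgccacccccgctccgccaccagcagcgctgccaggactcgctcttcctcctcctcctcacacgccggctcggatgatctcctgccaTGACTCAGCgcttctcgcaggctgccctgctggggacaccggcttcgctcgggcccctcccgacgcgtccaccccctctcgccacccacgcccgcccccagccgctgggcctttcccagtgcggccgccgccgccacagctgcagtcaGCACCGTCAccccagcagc
UGDH, chr4:39527410-39527689, minus strand: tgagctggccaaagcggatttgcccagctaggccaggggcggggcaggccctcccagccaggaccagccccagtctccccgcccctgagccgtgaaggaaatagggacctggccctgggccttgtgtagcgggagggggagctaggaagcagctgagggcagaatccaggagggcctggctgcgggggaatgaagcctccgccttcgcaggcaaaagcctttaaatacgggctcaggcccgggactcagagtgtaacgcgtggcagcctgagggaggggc

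The GCLM match began 34 bases before the start. The first TXNRD1 start had matches at 99 and 8 bases before it, and the second had 1 match at 102 bases before. ME1 had 1 match at 137 bases before its start, which overlaps the letters TGACTCA bound by AP-1 factors, and 1 match beginning at base 12 of the transcript. PGD had 1 match, while no match was in the windows of GCLC, TXN, SRXN1, NQO1 and UGDH. Thus 5 of the 10 member windows held the motif, against 12.4% of all 35116 windows, and TGACTCA was in 1 of the 10 against 4.73%. Counted by gene, 4 of the 9 members held the motif, against 14.9% of 27305 genes. The members were chosen as NRF2 targets, so these shares are a description. Matches beyond the windows were not searched for. A match is a run of letters and no evidence of binding in these cells.

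The labelled line was checked against marker genes. All 8 epithelial and PC-3 markers on the list lay between the 74.1st and 98.4th percentile of probe brightness. Of the 2 genes on the array that were listed as absent from PC-3, KLK3 lay at the 14.3rd percentile, but TMPRSS2 lay at the 62.6th and passed the brightness filter. Of 11 markers of blood, vessel, connective tissue and liver cells, 4 passed the brightness filter, of which CD68 was the brightest at the 85.8th percentile. The experiments differed in brightness and spread: the 75th percentile of raw intensity ran from 274.6 to 416.2 on the arrays of the inactive compound and from 430.9 to 655.5 on those of the active compound, and the residual SD (log2) was 0.215 and 0.119. Each compound was therefore set against its own vehicle in a fit of its own 16 arrays. Every value below is a log2 normalized signal or a difference of such signals, a difference of 1 being a doubling, and "called" means that limma's Benjamini-Hochberg adjusted p over the 10598 genes was under 0.05.

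**Figure D1:**
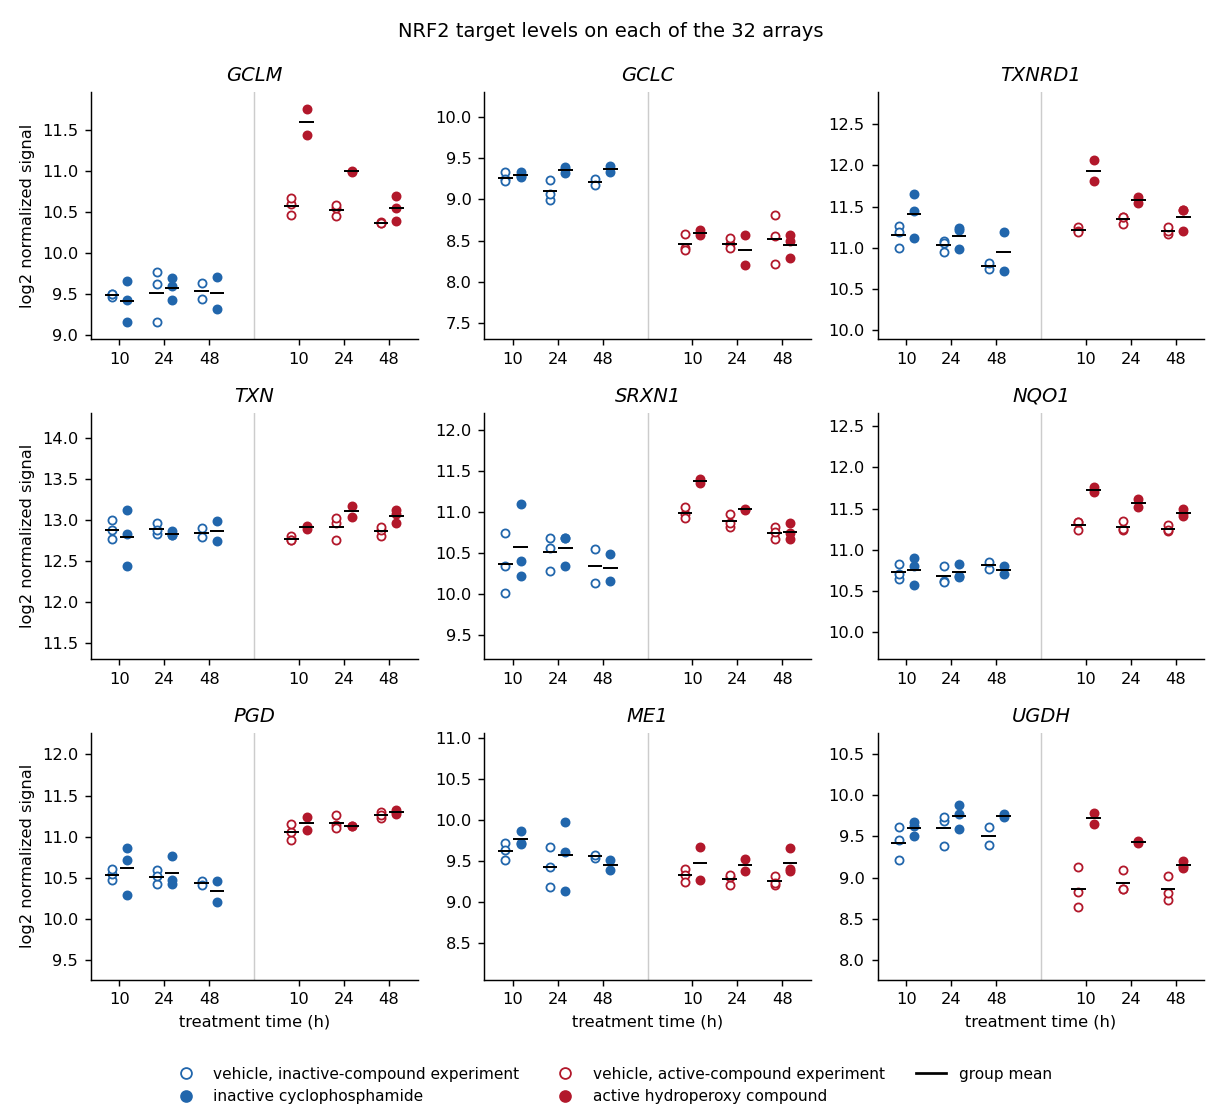
Each point is 1 array's log2 normalized signal of 1 gene, by treatment time in hours, with the inactive-compound experiment in blue on the left of each panel, the active-compound experiment in red on the right, vehicle open, treated filled, and a bar at each group mean. All panels span the same number of log2 units, and the active compound's 10 h arrays of GCLM, at 11.75 and 11.43, stand above their vehicle arrays, at 10.46 to 10.67.

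The active compound raised 5 of the 9 genes at 10 h: GCLM, UGDH, TXNRD1, NQO1 and SRXN1. GCLM, the regulatory subunit of the enzyme that makes the first and rate-limiting step of glutathione synthesis, was about doubled (2.02-fold). UGDH, which makes UDP-glucuronate, rose 1.81-fold, and TXNRD1, the cytosolic reductase that recharges thioredoxin with NADPH, rose 1.65-fold. The other 4 genes, GCLC, TXN, PGD and ME1, had changes from 0.11 to 0.14 and were not called. Of all genes tested, 1.65% were called in either direction and 0.547% were called higher, and the median change was 0.39 over the 9 genes and -0.0006 over all genes. Since the 9 genes were chosen with earlier results of these data known, this contrast is a description and no test. GCLM, UGDH and TXNRD1 were called at 10 h in every fit tried, while of the 11 other settings NQO1 was called in 8 and SRXN1 in 5 (limma adjusted p up to 0.122 and 0.821). Without the first active array at 10 h 4 of the 9 genes and 43 genes in all were called, and without the second 1090 genes in all, against 175 with both.

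The GCLM signal on the vehicle arrays at 10 h was 10.60, 10.46 and 10.67. On the arrays given the active compound it was 11.75 and 11.43. Both treated arrays lay above all 3 vehicle arrays, and the difference of 1.02 (SE 0.101, limma adjusted p = 1.90e-06) was the second highest of the 10598 genes. GCLM (chr1:93885199-93909430 on GRCh38.p14) has the window printed first above.

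GCLC (chr6:53497341-53545101), the catalytic subunit of the same enzyme, read 8.41, 8.58 and 8.38 on the vehicle arrays and 8.63 and 8.57 with the active compound. The groups overlapped, and the difference was 0.14 (95% interval -0.13 to 0.41, limma adjusted p = 0.643). Within an array, the GCLM signal minus the GCLC signal lay between 1.88 and 2.29 on the vehicle arrays and between 2.87 and 3.13 with the active compound. The signals of the 2 subunits thus changed unequally at 10 h, with no overlap between the groups. This difference within arrays was not tested.

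TXNRD1 (chr12:104215779-104350307) read 11.25, 11.20 and 11.19 on the vehicle arrays at 10 h. It read 12.06 and 11.81 with the active compound. The treated arrays lay above the vehicle arrays by more than the vehicle spread, and the difference was 0.72 (SE 0.0943, limma adjusted p = 6.27e-05). SRXN1 (chr20:646615-653200), sulfiredoxin, which repairs over-oxidised peroxiredoxins, read 10.97, 11.06 and 10.92 against 11.40 and 11.35. Its groups did not overlap either, with a difference of 0.39 (SE 0.0880, adjusted p = 0.0241). It was called in 2 of the 5 fits that left out 1 of these arrays, and lost without the first vehicle array, the third vehicle array or the first active array (adjusted p = 0.0554, 0.111 and 0.321).

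TXN (chr9:110243810-110256507), thioredoxin itself and the substrate of TXNRD1, read 12.80, 12.75 and 12.76 on the vehicle arrays and 12.93 and 12.89 with the active compound at 10 h. The treated arrays were higher on both, yet the difference of 0.14 (SE 0.0897, limma adjusted p = 0.440) was not called. Its probe was brighter than all but 0.714% of probes. The TXNRD1 signal minus the TXN signal lay between -1.57 and -1.55 on the vehicle arrays and between -1.08 and -0.86 with the active compound, again without overlap and not tested.

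**Figure D2:**
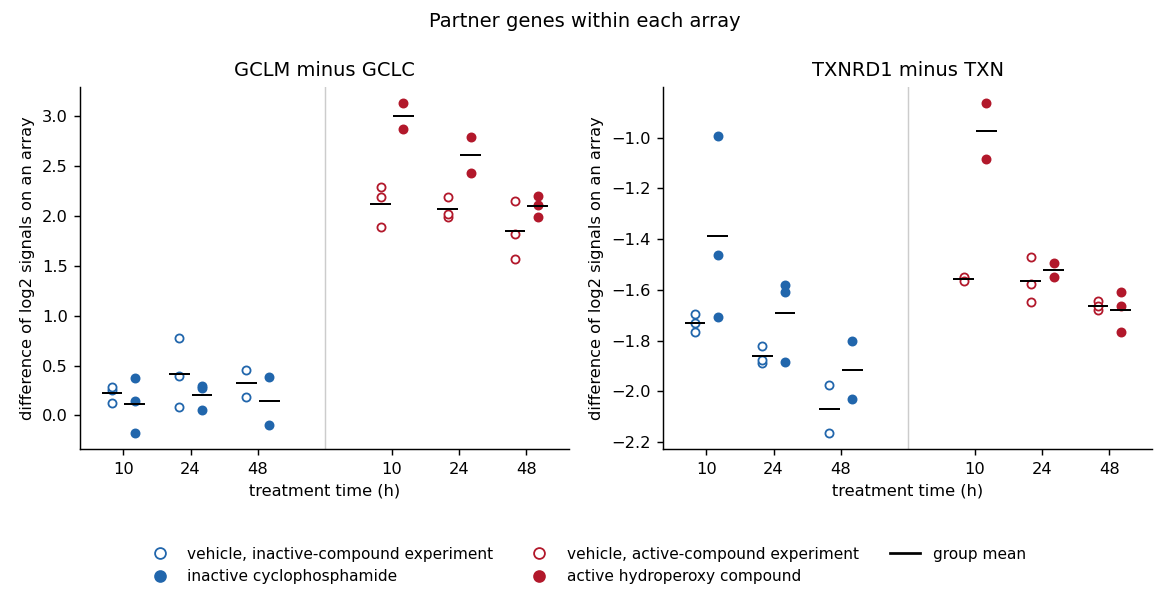
Each point is 1 array: the log2 signal of GCLM minus that of GCLC (left) and of TXNRD1 minus that of TXN (right), by treatment time in hours, with colours, fills and mean bars as in the plot of levels. At 10 h the active compound's arrays, at 2.87 to 3.13 for GCLM minus GCLC, stand above their vehicle arrays, at 1.88 to 2.29, while at 48 h the groups overlap for both pairs.

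NQO1 (chr16:69709401-69726560), a quinone reductase that uses NADPH or NADH and is widely used as a readout of NRF2, read 11.34, 11.24 and 11.33 on the vehicle arrays at 10 h. It read 11.70 and 11.76 with the active compound, above all vehicle arrays, a difference of 0.42 (SE 0.0813, limma adjusted p = 0.00615). UGDH (chr4:39498755-39527439), which oxidises UDP-glucose and passes electrons to NAD, read 9.13, 8.64 and 8.82 against 9.78 and 9.66. Its vehicle arrays were more spread than those of the other called members, and the difference of 0.85 (SE 0.116, adjusted p = 1.15e-04) was the third highest of all genes.

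The NADPH-producing enzymes were not called. PGD (chr1:10399064-10420511), of the pentose phosphate pathway, read 10.96, 11.05 and 11.16 on the vehicle arrays and 11.09 and 11.24 with the active compound at 10 h, so that the groups overlapped. Its difference was 0.11 (95% interval -0.07 to 0.28, limma adjusted p = 0.568). ME1 (chr6:83210402-83431051), the cytosolic malic enzyme, read 9.41, 9.34 and 9.25 against 9.67 and 9.28, overlapping as well. Its difference was 0.14 (95% interval -0.08 to 0.37, adjusted p = 0.528), and ran from -0.05 to 0.34 when 1 array was left out. The NQO1 difference of 0.42 lies outside the intervals of PGD and ME1, but its own 95% interval, 0.26 to 0.59, overlaps both. Differences between these genes were not tested.

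**Figure D3:**
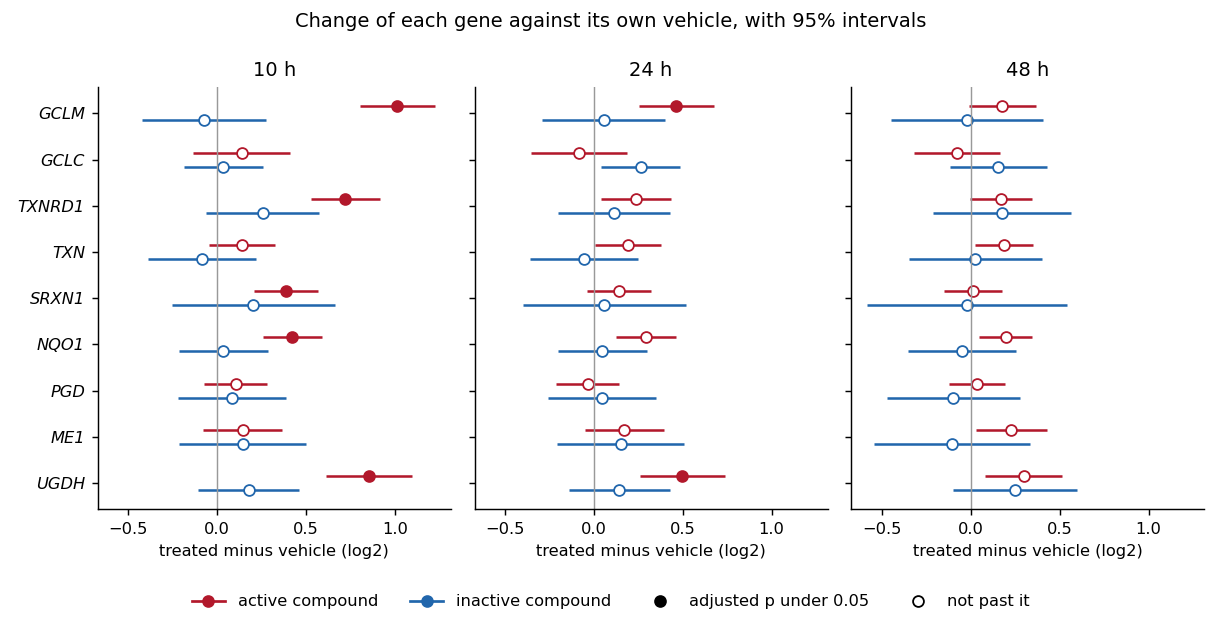
Points are differences between treated and vehicle groups (log2, x axis) for each of the 9 genes at 10, 24 and 48 h, red for the active and blue for the inactive compound, with 95% intervals as lines and filled points where limma's adjusted p was under 0.05. Filled points are GCLM, TXNRD1, SRXN1, NQO1 and UGDH at 10 h and GCLM and UGDH at 24 h, all with the active compound.

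At 24 h the active compound still raised GCLM and UGDH, and 1.92% of all genes were called, 1.13% higher. GCLM read 10.45, 10.55 and 10.59 on the vehicle arrays and 10.986 and 10.998 with the compound, a difference of 0.46 (1.38-fold, SE 0.101, limma adjusted p = 0.0140). UGDH read 8.85, 9.10 and 8.86 against 9.45 and 9.42, a difference of 0.50 (1.41-fold, SE 0.116, adjusted p = 0.0244). For both genes the treated arrays lay above all vehicle arrays. Both calls were lost when 1 of several arrays was left out: without the first vehicle array at 24 h, or without either treated array, no member was called, and without the third vehicle array only GCLM was.

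The other members were not called at 24 h, although NQO1 was called in 3 of the 11 other settings (adjusted p down to 0.0278). NQO1 read 11.23, 11.25 and 11.35 on the vehicle arrays and 11.62 and 11.51 with the active compound, a difference of 0.29 (SE 0.0813, limma adjusted p = 0.0698). TXNRD1 read 11.29, 11.38 and 11.37 against 11.55 and 11.62, a difference of 0.24 (adjusted p = 0.273). In both genes the treated arrays were above the vehicle arrays, as they were in SRXN1, TXN and ME1. SRXN1 differed by 0.14, TXN by 0.19 and ME1 by 0.17, with adjusted p of 0.542, 0.369 and 0.546. GCLC and PGD differed by -0.08 and -0.04, and their groups overlapped.

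At 48 h no member was called, while 9.79% of all genes were. Of the 9 genes 4 had an unadjusted p under 0.05, as did 2487 of the 10598 genes tested. Of the 9 differences 8 were positive, against 48.4% over all genes. The highest was UGDH, at 0.30 (SE 0.104, limma adjusted p = 0.0737), which read 9.02, 8.73 and 8.81 on the vehicle arrays and 9.12, 9.14 and 9.20 with the active compound. NQO1 read 11.23, 11.29 and 11.24 against 11.41, 11.45 and 11.49, a difference of 0.20 (adjusted p = 0.0937). In these genes, and in GCLM, TXN and ME1, all 3 treated arrays lay above all 3 vehicle arrays. How many of all genes were so separated was not counted at any time. ME1 differed by 0.23, TXN by 0.19, GCLM by 0.18 and TXNRD1 by 0.17, with adjusted p from 0.152 to 0.246. SRXN1, PGD and GCLC differed by 0.01, 0.03 and -0.08.

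The summed signal of the 11 markers of other cell types was also higher with the active compound at 10 and 48 h. CD68, with a mean log2 signal of 9.63, was the largest part of the sum, followed by COL1A1 at 7.14. A higher sum therefore does not show that the markers rose together. The log2 of the sum lay between 10.50 and 10.56 on the treated arrays at 10 h and between 10.42 and 10.48 on the vehicle arrays. At 48 h the ranges were 10.71 to 10.77 and 10.54 to 10.58, while at 24 h, at 10.51 to 10.53 and 10.49 to 10.55, they overlapped. The part of these markers in the members' values was not tested. In RNA from whole flasks, fewer cells of a kind and less RNA per cell cannot be told apart.

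The change of the active effect with time was tested directly, since a call at one time and none at another does not show a difference. From 10 to 48 h the effect fell in 3 members, and 5.11% of all genes were called in this comparison. GCLM fell by 0.84 (SE 0.136, limma adjusted p = 0.000668), TXNRD1 by 0.55 (SE 0.126, adjusted p = 0.0120) and UGDH by 0.56 (SE 0.156, adjusted p = 0.0380). Without the first active array at 10 h only GCLM was called, and UGDH was called in 4 of the 11 fits that left out 1 array and in 5 of the 11 other settings. SRXN1 had a difference of -0.38 (adjusted p = 0.0643) and NQO1 one of -0.23 (adjusted p = 0.244).

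From 10 to 24 h no member's effect was called as different, with 0.717% of all genes called. At an unadjusted p under 0.05 there were 3 members and 1425 of the 10598 genes. GCLM had a difference of -0.55 (SE 0.143, limma adjusted p = 0.0745) and TXNRD1 one of -0.49 (SE 0.133, adjusted p = 0.0896), and both were called when the second active array at 10 h was left out. UGDH had a difference of -0.36 (adjusted p = 0.340). The comparisons of 24 h and 48 h with 10 h share the 10 h arrays. TXN and ME1 had the opposite sign. TXN differed by 0.05 from 10 h to either later time, with adjusted p of 0.900 and 0.882.

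On the vehicle arrays of the active-compound experiment the members were not called to change with time, neither from 10 to 24 h, where 1.3% of all genes were called, nor from 24 to 48 h, where 2.87% were. No member had an unadjusted p under 0.05 in either comparison, where 1516 and 1776 of the 10598 genes did. GCLM differed by -0.05 from 10 to 24 h (95% interval -0.24 to 0.14) and by -0.16 from 24 to 48 h (95% interval -0.35 to 0.03). TXNRD1 differed by 0.13 and -0.14, in opposite directions, and TXN by 0.14 and -0.04. UGDH differed by 0.07 and -0.08.

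With the inactive compound no member was called at 10, 24 or 48 h or on average over the times, and 0% of all genes were called in any of these 4 comparisons. At an unadjusted p under 0.05 there were 523, 110, 155 and 450 of the 10598 genes, and 0, 1, 0 and 2 of the 9 members. GCLM read 9.46, 9.5 and 9.5 on the vehicle arrays at 10 h and 9.42, 9.66 and 9.16 with the inactive compound. The vehicle arrays lay inside the range of the treated ones, and the difference was -0.07 (95% interval -0.42 to 0.28, limma adjusted p = 0.995). At 24 h GCLM differed by 0.05 and at 48 h by -0.02, both within overlapping groups.

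In this experiment each treated array has a vehicle partner of the same time and title letters, which gives 8 pairs. UGDH was higher on the treated array in 8 of 8 pairs, by 0.02 to 0.34 with a median of 0.18. Averaged over times its difference was 0.19 (SE 0.0847, limma adjusted p = 0.994). GCLC was higher in 7 of 8 pairs, with an average difference of 0.15 (SE 0.0659, adjusted p = 0.994). TXNRD1 was also higher in 7 of 8 pairs, with an average of 0.18 (SE 0.0938, adjusted p = 0.994). These values are from the fit without pairs. UGDH, GCLC and TXNRD1 had the highest pair counts of the members. How many of all genes were higher in 7 or 8 of the 8 pairs was not counted, so these counts are a description. With the pairs as a block the adjusted p was 0.283 for UGDH, 0.361 for GCLC and 0.390 for TXNRD1, and 10 genes in all were called against 0, none of them a member.

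GCLC at 24 h had the lowest unadjusted p of the members with the inactive compound. It read 8.99, 9.23 and 9.07 on the vehicle arrays and 9.32, 9.39 and 9.37 on the treated ones, so that the groups did not overlap. The difference was 0.26 (SE 0.106, limma adjusted p = 1). At 10 h GCLC overlapped between the groups, with a difference of 0.03, and at 48 h it read 9.25 and 9.18 against 9.41 and 9.33, a difference of 0.15.

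The other members were not called either. SRXN1 at 10 h read 10.02, 10.35 and 10.74 on the vehicle arrays and 10.22, 10.40 and 11.09 with the inactive compound, the third array of either group being the highest. TXN at 10 h read 12.77, 12.99 and 12.88 against 12.83, 12.44 and 13.12. In both genes the spread within a group exceeded the difference between groups, which was 0.20 for SRXN1 and -0.09 for TXN. NQO1 was higher on the treated array in 3 of 8 pairs, GCLM, TXN and ME1 in 4, PGD in 5 and SRXN1 in 6.

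The third treated array at 10 h stood apart from the other arrays of its experiment, and without it no member was called either. A score was taken from the genes called between vehicle arrays at 24 and 10 h in the active experiment, as the mean log2 signal of those higher at 24 h minus that of those lower. In that experiment it lay between -0.56 and -0.43 on the vehicle arrays at 10 h and between 0.35 and 0.45 at 24 h. In the inactive experiment the vehicle arrays of the first and second runs of title letters ran the other way, at 0.65 and 0.48 at 10 h against -0.17 and 0.07 at 24 h. Those of the third run rose from 10 to 24 h, at 0.54 and 0.73. Its 10 h array, like those of the other runs, still lay above the 24 h vehicle arrays of the active experiment. Whether the labels of 10 and 24 h are exchanged on some of these arrays was not tested, and every comparison of the compounds at one time rests on the labels as given. With the third run alone at these times, 1 vehicle and 1 treated array each, the count of called members was 0 again, while 41 genes in all were called at 10 h.

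The compounds were compared at the same labelled times by the difference of their effects, each against its own vehicle, in a fit of all 32 arrays that weights each experiment by its spread. At 10 h GCLM differed by 1.09 (95% interval 0.69 to 1.49, SE 0.195, limma adjusted p = 0.0207), higher with the active compound. It was the only member called, and 0.0189% of all genes (2 genes) were called. The other called gene was HMOX1, haem oxygenase, the best known NRF2 target, whose active effect exceeded the inactive one by 3.0 (adjusted p = 7.72e-11). With the third run alone in the inactive experiment at 10 and 24 h, GCLM differed by 1.36, the lone arrays being assumed to vary like the rest. The treated 10 h array of that run is the one that stood apart. GCLM was lowest on it, at 9.16 against 9.42 and 9.66 on the other treated arrays. Without any one of the 3 vehicle arrays at 10 h of the inactive experiment, or without the first active array at 10 h, GCLM was not called.

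For the other members the compounds were not told apart at 10 h, with wide intervals. UGDH differed by 0.68 (95% interval 0.28 to 1.08, limma adjusted p = 0.340), TXNRD1 by 0.47 (0.11 to 0.82, adjusted p = 0.567) and NQO1 by 0.39 (0.11 to 0.66, adjusted p = 0.475). SRXN1 differed by 0.18 (-0.26 to 0.63) and TXN by 0.23 (-0.11 to 0.56). ME1 differed by -0.0012 (-0.42 to 0.42), PGD by 0.02 (-0.30 to 0.35) and GCLC by 0.10 (-0.32 to 0.52). These intervals do not show that the compounds act alike on these genes.

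At 24 h no member was called in this comparison, with 0.0283% of all genes called. At an unadjusted p under 0.05 there were 1 member, GCLM, and 384 of the 10598 genes. GCLM differed by 0.41 (95% interval 0.01 to 0.81, limma adjusted p = 1) and UGDH by 0.35 (-0.05 to 0.76). GCLC had the opposite sign, at -0.35 (-0.77 to 0.07). At 48 h no member was called either, and 0.0189% of all genes were called. At an unadjusted p under 0.05 there were 0 members and 545 of all genes. The differences ran from -0.23 for GCLC to 0.34 for ME1.

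Vehicle signals are given for each experiment side by side. On the 8 vehicle arrays of the inactive experiment GCLM lay between 9.16 and 9.77, with a median of 9.5, and on the 9 of the active experiment between 10.37 and 10.67, with a median of 10.46. GCLC ran the other way, between 8.99 and 9.34 (median 9.22) in the first and between 8.21 and 8.81 (median 8.46) in the second. For these genes the ranges did not overlap. The same held for NQO1 and PGD, higher in the active experiment, and for UGDH, lower in it. For TXN they did overlap, at 12.77 to 12.99 and 12.75 to 13.02, and so did those of TXNRD1, SRXN1 and ME1. The arrays were normalized together, the scan or culture conditions of the experiments are not given in the labels, and experiment and level cannot be told apart, so every test set treated arrays against vehicle arrays of their own experiment.

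Other genes of these pathways were counted on 6 lists with 74 tested genes in all. At 10 h with the active compound 2 of the 74 were called higher, HMOX1 and AKR1B10, and 1 lower, HAGH, with a median of 0.07, where 1.65% of all genes were called and 0.547% were called higher. HMOX1 rose by 3.49 (11.2-fold, SE 0.123, limma adjusted p = 2.37e-15). AKR1B10, an aldo-keto reductase that reduces reactive aldehydes, rose by 0.59 (adjusted p = 0.00213), and HAGH, glyoxalase 2, fell by 0.37 (adjusted p = 0.0374). None of the 9 regulators of NRF2, 9 tested genes of the thioredoxin and peroxiredoxin system, 13 of NADPH supply or 9 of UDP-glucose and glucuronate handling was called at 10 h.

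At 24 h 8 of the 74 were called higher and 0 lower, where 1.92% of all genes were called and 1.13% were called higher. From glutathione synthesis and use these were SLC7A11 (0.47) and SLC3A2 (0.55), which together form the cystine importer, and CHAC1 (0.56), which breaks glutathione down. SQSTM1, a receptor of autophagy that binds KEAP1, rose by 0.56, AKR1B10 by 0.77 and HMOX1 by 0.70. MTHFD2, a mitochondrial folate enzyme, rose by 0.48, and HAS2, which uses the UDP-glucuronate that UGDH makes to build hyaluronan, by 0.35. Their limma adjusted p lay between 5.14e-05 and 0.0358, and the median of all 74 genes was 0.06.

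At 48 h 14 of the 74 were called higher and 3 lower, where 9.79% of all genes were called. SLC3A2 rose by 0.63, CHAC1 by 0.36, SLC7A11 by 0.32 and SQSTM1 by 0.63. Of the other NRF2 targets 6 rose, among them AKR1B10 by 0.63, AKR1C3, another aldo-keto reductase, by 0.72, FTL, the light chain of ferritin, by 0.32 and PTGR1, a reductase of prostaglandins, by 0.32. TXNIP, the inhibitor of thioredoxin, rose by 0.29 and was the only called gene of its list. In NADPH supply PGLS rose by 0.39 and MTHFD2 by 0.48, while RPIA, of the pentose phosphate pathway, fell by 0.26. HAS3, a further hyaluronan synthase, fell by 0.43, and UGT1A6, a glucuronosyl transferase whose last exons are shared with its sister genes so that its probe may not be specific, rose by 0.49. The single fall among the other NRF2 targets was PIR, pirin, by 0.30, named after its value was seen. With the inactive compound 0 of the 74 were called at any time.

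**Figure D4:**
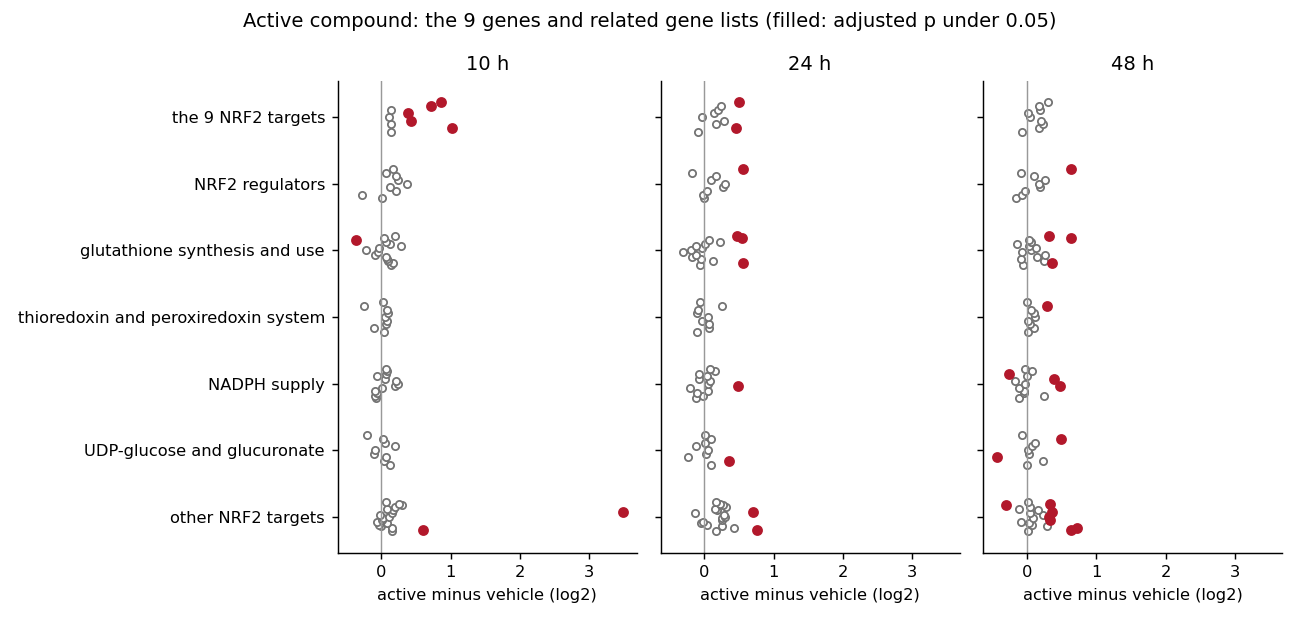
Each point is 1 gene's difference between the active compound and vehicle (log2, x axis) at 10, 24 and 48 h, for the 9 genes and the 6 lists of related genes, filled where limma's adjusted p was under 0.05. At 10 h 5 of the 9 genes and 3 of the 74 list genes are filled, with HMOX1 far to the right at 3.49, and at 48 h 0 of the 9 and 17 of the 74 are.

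Likeness to the 9 genes was measured over the 32 arrays as Pearson's r with the mean of the members' standardised signals, each array taken as its deviation from the vehicle mean of its experiment and time. The points share arrays and treatments, and r is given as a description. Of the members TXNRD1 was most like the mean (0.87), followed by UGDH (0.82) and NQO1 (0.78), and GCLC was least like it (0.24). Each member is itself part of this mean, which raises its r, so members and outside genes are not on equal terms. The most like genes outside the members were HMOX1 (0.78), PARS2 (0.76), the mitochondrial prolyl-tRNA synthetase, SLC43A1 (0.74), an amino acid transporter, LITAF (0.73), a protein of lysosomal membranes, and TYRO3 (0.73), a receptor tyrosine kinase. On the arrays of the inactive compound alone r was 0.04 for HMOX1 and 0.87 for PARS2. On those of the active compound r was 0.91 and 0.81. GCLM reached 0.96 on the arrays of the active compound and -0.43 on those of the inactive one. Among the 74 list genes MAFG (0.65), a small MAF partner of NRF2, AKR1B10 (0.63), MGST1 (0.62) and TALDO1 (0.62) followed HMOX1.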

How the data were processed

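Expression was measured on 32 arrays of PC-3 cells. Linear probe intensity was taken from the deposited signal table. The authors also deposited a series table of log2 values, whose rank order on each array followed the intensities (Spearman at least 0.999). How it was normalized was not given in the sources used here. BeadStudio and R 2.12.0 are named in the submitters' processing notes. No 2 arrays held identical values. Detection values were not used here.

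In limma 3.58.1 under R 4.3.3, background was corrected by normexp with an offset of 50, the 32 arrays were quantile-normalized together and log2 was taken. The upper 60% of probes by mean signal entered the tests, with a gene represented by its brightest probe (10598 genes). Of the probes 18332 had 1 gene symbol in the platform annotation and 2257 were unlisted, and 18315 were found in the RefSeq gene table. Each experiment was fitted on its own 16 arrays with a mean per group, differences between compounds on all 32 arrays with weights for each experiment, and p-values were adjusted by Benjamini-Hochberg at 5% over all genes in each of 14 comparisons. Groups came from the titles and treatment labels. The fits were run on simulated arrays with known changes, drawn with independent noise. Links between partner arrays were not simulated, so this does not show how the calls hold under such links. The number of arrays limits the precision.

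Title letters give vehicle and treated partners at each time. Partners' deviations from their group means correlated at 0.16 to 0.69 in the inactive-compound experiment, over 0.1 in 8 of 8 pairs. In the active-compound experiment 6 of 7 pairs were over 0.1 (lowest -0.04). Differences between partners are therefore described for the inactive-compound experiment only. The reported fits of either experiment used no pairs, and pairs as a replicate block were an alternative setting. The pairing comes from the titles, not from a stated batch. The members and lists were chosen with earlier results of these data known. All 9 members are named in each main comparison. Of the lists, up to 4 called genes with the smallest p per list and comparison are named, and for likeness the 5 highest genes outside the members and the 5 highest list genes.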

Additional observations from a re-analysis of the deposited data

Results flagged for a closer look

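The effect of the active compound at 48 h differed from that at 10 h by a test of the difference itself in 3 of the 9 genes: by -0.84 for GCLM (log2, limma adjusted p = 0.000668), by -0.55 for TXNRD1 (adjusted p = 0.0120) and by -0.56 for UGDH (adjusted p = 0.0380). The UGDH call held in 5 of the 11 other settings and in 4 of the 11 fits without 1 array, that of TXNRD1 in 9 and 10, and that of GCLM in 10 and 11. The effect of the active compound at 10 h exceeded that of the inactive compound in GCLM, by 1.09 (limma adjusted p = 0.0207). The 2 experiments were separate, so compound and experiment cannot be told apart beyond each experiment's own vehicle arrays.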

How the results depend on the processing

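No called member changed sign, and counts of called members moved by over 1.5 times as follows, for the active compound at 24 h in 9 of 16 alternatives. At 10 h with the active compound 5 members were called, and 3 (GCLM, TXNRD1, UGDH) with one fit of all 32 arrays and with median scaling, or with each experiment normalized alone and pairs as a replicate block. At 24 h the count of 2 became 0 under those 3 settings and 1 with an offset of 16 or no filter on dim probes, and NQO1 was added (3 members) without background correction, in the authors' log2 table and with the trended and robust prior. At 48 h 1 member, UGDH, was called with pairs within time as a replicate block, and 0 otherwise. The change from 10 to 24 h was called in 1 member, GCLM, without background correction and with either replicate block, and in 2, GCLM and TXNRD1, with a trended and robust prior. The change from 10 to 48 h was called in 0 members with one fit of all 32 arrays and in 1 with median scaling, and UGDH was lost under 4 further settings. GCLM was not called in the difference between compounds at 10 h, a count of 0, with one fit of all 32 arrays, offset 16 or median scaling. Leaving out 1 array gave 4 to 5 members at 10 h, 0 to 2 at 24 h, 0 to 1 at 48 h, 0 to 2 for 10 to 24 h, 1 to 3 for 10 to 48 h and 0 to 1 for the compounds at 10 h. The cause of these shifts was not tested.

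With the inactive compound 0 members were called under any setting. With pairs as a replicate block its averaged differences were 0.19 for UGDH (limma adjusted p = 0.283), 0.15 for GCLC (adjusted p = 0.361) and 0.18 for TXNRD1 (adjusted p = 0.390), and 10 genes in all were called against 0. In the active-compound experiment, where the numbers were not taken as pairs, this block called 86 genes at 10 h and 1334 at 48 h.

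Over all genes the active compound's count at 10 h was 175 and ran from 25 (one fit) to 242 (no background correction), at 24 h it was 203 and ran from 16 to 259, and at 48 h it was 1038 and ran from 169 to 1334. The changes from 10 to 24 h ran from 2 to 110 (76 in the reported fit) and from 10 to 48 h from 14 to 678 (542). The vehicle comparisons ran from 1 to 266 (138) and from 1 to 521 (304), and the differences between compounds from 1 to 134 (2) at 10 h, from 1 to 35 (3) at 24 h and from 1 to 191 (2) at 48 h. Calls were higher in 33.1%, 59.1% and 50.4% at 10, 24 and 48 h, and in 60%, 77.2% and 68.5% with median scaling. In the vehicle comparison of 24 with 10 h they were higher in 39.1% and with median scaling in 8.25%.

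Other probes of a member could not be tried, since each had 1 probe. The planned fit without arrays that scored with the other time on the vehicle axis would have left no 10 h array and was not run. Fits chosen after seeing the data left out the 10 and 24 h arrays of the third run or of the first and second runs. GCLM differed between the compounds at 10 h by 0.95 (called) in the former. In the latter, with 1 array per group at these times, it differed by 1.36. The former keeps the arrays whose scores ran against the labels. The latter keeps a 10 h vehicle array that scored 0.54, on the side of 24 h, and the treated 10 h array that stood apart. Neither is a check of the labels. Detection values were not used here, but all 9 probes were among the brighter ones of the array.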
